A study of Rattus norvegicus with 16 samples.

Results

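Heat shock proteins and chaperonins were followed in rat myelinating cultures that had been exposed to 3 preparations of fibroblast growth factor 2. The genes were taken by symbol: the HSP70, HSP90, HSP110 and small heat shock protein families, the J proteins (Dnaja, Dnajb and Dnajc), the subunits of the cytosolic chaperonin (Tcp1 and Cct2 to Cct8) and the Bag genes, without Hspa5. Of 14557 genes with a transcript cluster carrying 1 symbol, 68 met the rule, and where a gene had several clusters the one with the highest mean over the 16 arrays was used. Among these, 10 had group means under a log2 value of 5 in every group, which is close to the floor of the arrays, and a change in them could be understated. Hspa8, Hsp90aa1 and Hspd1 had no cluster carrying their symbol alone and were not analysed here. Hspbap1 met the rule by name only, and Hspd1l2, a copy related to Hspd1, was given no role.

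The cultures were embryonic spinal cord cells of Sprague-Dawley rats, grown on a layer of astrocytes derived from striatal neurospheres of newborn rats, so that neurons, oligodendrocytes and their progenitors, astrocytes and microglia were measured as 1 mixture. On day 18 in vitro they received wtFGF2, humanFGF2 or F2V2, or were left untreated (Control), and RNA was collected 24 h later, with 4 arrays in each group. HumanFGF2 and F2V2, a human FGF2 truncated at its N-terminus that the study describes as selective for the receptor FGFR1, were given at 100 ng/ml. The dose of wtFGF2 and how it differed from humanFGF2 are not given in the sources used here. Values are log2 expression on Affymetrix Rat Gene ST arrays. They describe 1 transcript cluster at a time and are not compared between genes.

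Molecular chaperones hold or refold proteins that are not in their native state. HSP70 proteins bind and release exposed segments in a cycle driven by ATP, in which J proteins deliver the client and start hydrolysis, and nucleotide exchange factors (the HSP110 proteins, Hspbp1 and the Bag proteins) free it again. Chaperonins enclose their clients in a barrel, the cytosolic one (CCT) serving above all actin and tubulin and the mitochondrial one (Hspd1 with its lid Hspe1) imported proteins. Small heat shock proteins hold unfolding clients without ATP, and many chaperone genes are transcribed by heat shock factor (HSF1) from heat shock elements, alternating GAA and TTC blocks.

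Upstream sequences are shown for 5 members whose changes differed: Hspe1 and Cct3, which rose with humanFGF2, Hspb1, which fell, and Dnajb1 and Hsph1, classical heat-inducible genes that were not called in any comparison. Each line gives the 250 bases before the start of the gene (RefSeq, build GRCr8), with GAANNTTC or TTCNNGAA, the pair of blocks that makes up a heat shock element, in capitals. Hspe1 lies at chr9:64084077-64084326 (+), Cct3 at chr2:176063279-176063528 (+), Hspb1 at chr12:26432302-26432551 (-), Dnajb1 at chr19:41431142-41431391 (-) and Hsph1 at chr12:10427118-10427367 (+).
Hspe1: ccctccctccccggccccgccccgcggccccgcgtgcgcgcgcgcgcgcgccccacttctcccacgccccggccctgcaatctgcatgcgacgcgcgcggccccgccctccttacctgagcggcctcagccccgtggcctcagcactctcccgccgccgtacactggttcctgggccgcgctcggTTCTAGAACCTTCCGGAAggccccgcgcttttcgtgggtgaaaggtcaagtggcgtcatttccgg
Cct3: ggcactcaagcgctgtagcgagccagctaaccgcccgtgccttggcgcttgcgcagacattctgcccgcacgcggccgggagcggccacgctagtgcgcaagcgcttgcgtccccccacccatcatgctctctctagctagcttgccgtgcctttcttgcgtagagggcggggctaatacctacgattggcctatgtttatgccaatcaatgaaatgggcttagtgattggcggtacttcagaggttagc
Hspb1: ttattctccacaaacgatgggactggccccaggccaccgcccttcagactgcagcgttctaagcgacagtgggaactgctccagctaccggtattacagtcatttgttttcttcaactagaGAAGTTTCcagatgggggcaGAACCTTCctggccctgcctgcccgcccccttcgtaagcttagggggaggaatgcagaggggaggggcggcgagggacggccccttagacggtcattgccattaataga
Dnajb1: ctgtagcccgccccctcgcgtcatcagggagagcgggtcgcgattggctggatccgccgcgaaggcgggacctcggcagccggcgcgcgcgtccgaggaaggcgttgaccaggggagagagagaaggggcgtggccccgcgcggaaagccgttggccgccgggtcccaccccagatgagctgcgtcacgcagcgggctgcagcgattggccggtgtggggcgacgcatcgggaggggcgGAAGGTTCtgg
Hsph1: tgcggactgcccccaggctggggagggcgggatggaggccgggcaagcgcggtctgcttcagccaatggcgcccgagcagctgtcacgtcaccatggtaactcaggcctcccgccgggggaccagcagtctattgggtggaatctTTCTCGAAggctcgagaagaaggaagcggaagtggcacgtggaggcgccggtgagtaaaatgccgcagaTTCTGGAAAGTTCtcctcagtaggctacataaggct
Pairs overlap into a triple (GAANNTTCNNGAA or TTCNNGAANNTTC) in Hspe1 and in Hsph1, where a further pair lies upstream of it, lie separately in Hspb1, occur once in the Dnajb1 stretch shown and do not occur in Cct3. Promoter windows (250 bases before to 50 after the start, both strands) were matched for 57 of the 68 members. A pair was found in 16 of them (28.1%), against 5305 of 33469 windows of all genes (15.9%). A triple was found in 4 (7.02%), namely Cct4, Dnaja1, Hspe1 and Hsph1, against 0.798% of all windows. These are matches of letters, and whether any is bound was not tested.

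Chaperone genes went both ways with humanFGF2 and mostly upward where they were called. A gene was called at an adjusted p under 0.05 (limma, Benjamini-Hochberg over 15653 transcript clusters) and a change of at least 1.4-fold. With humanFGF2, 14 of the 68 rose and 4 fell relative to Control, that is 20.6% and 5.88%, against 10.5% and 8.59% of all clusters (19.0% in both directions together). With wtFGF2, 6 rose and 2 fell, that is 8.82% and 2.94%, against 7.06% and 5.92% of all clusters (13.0% together). The upward share with wtFGF2 was thus near the background and the downward share below it. With F2V2, 4 rose and 0 fell, or 5.88% upward against 5.76% of all clusters (3.60% downward, 9.36% together), so the share called was near the background there. At adjusted p alone, 13 members were lower with humanFGF2, 12 with wtFGF2 and 12 with F2V2, that is 19.1%, 17.6% and 17.6%, against 21.2%, 18.6% and 16.0% of all clusters, so the 0 for F2V2 reflects the fold threshold. The median log2 difference of the members was 0.18 with humanFGF2, 0.11 with wtFGF2 and 0.02 with F2V2, beside medians over all clusters of 0.02, 0.03 and 0.01. The F2V2 median was 0.07 without F2V2 replicate 3 or without Control replicate 1, and 0.08 without dim clusters. All 3 comparisons share the same 4 Control arrays.

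**Figure D1:**
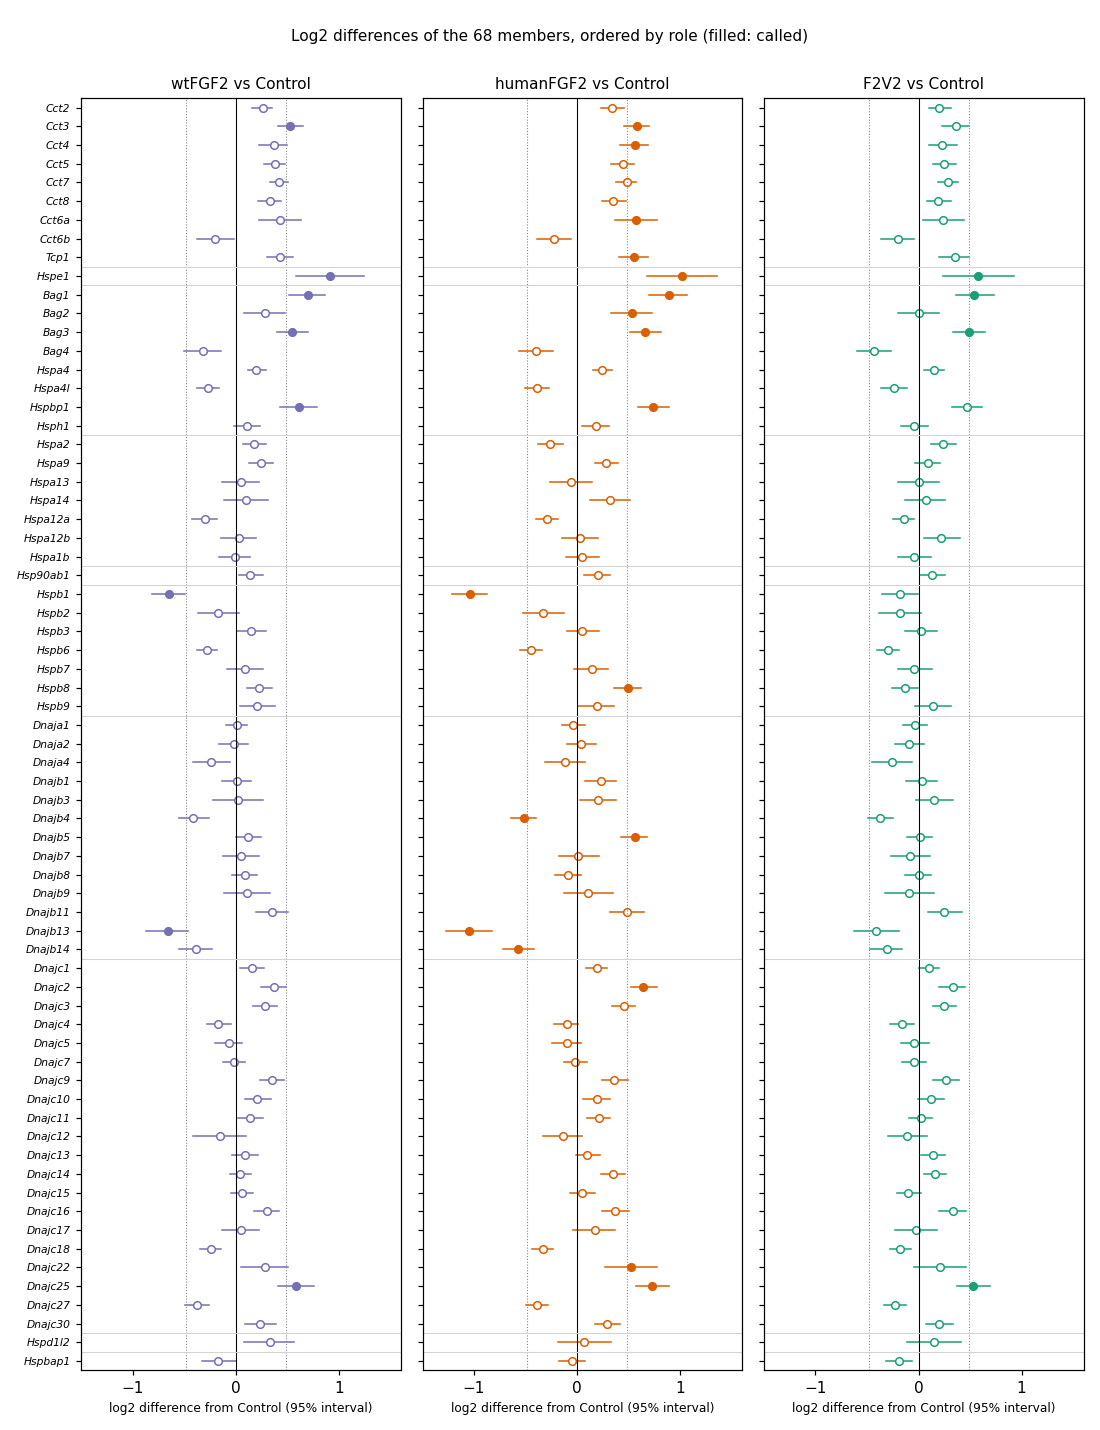
Log2 difference from Control (horizontal axis) of each of the 68 members with its 95% interval, for wtFGF2, humanFGF2 and F2V2, 4 arrays per group. Filled points were called, dotted lines mark 1.4-fold and grey lines separate the roles. The points of Tcp1 and Cct2 to Cct8 other than Cct6b lie to the right of 0 in all 3 panels, and Hspb1 and Dnajb13 lie farthest to the left with humanFGF2.

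Subunits of the cytosolic chaperonin were higher together with each ligand. All 8 subunits other than Cct6b were higher with humanFGF2 and with wtFGF2 than in Control at adjusted p alone, and 7 of the 8 with F2V2 (background upward 24.4%, 20.7% and 17.1% of clusters). Their median log2 difference was 0.51 with humanFGF2, 0.40 with wtFGF2 and 0.24 with F2V2. These are small changes. With the fold threshold 4, 1 and 0 of the 8 subunits were called higher. That is 50.0%, 12.5% and 0%, against 10.5%, 7.06% and 5.76% of all clusters. Among 8 subunits, the counts with wtFGF2 and F2V2 were thus near the background. In 8, 8 and 6 subunits no treated array overlapped a Control array, against 25.1%, 20.2% and 15.9% of clusters that were higher without overlap.

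Cct3, the gamma subunit, had log2 values of 11.36, 11.28, 11.25 and 11.39 with wtFGF2, 11.37, 11.31, 11.44 and 11.35 with humanFGF2, 11.17, 11.25, 11.00 and 11.18 with F2V2, and 10.83, 10.73, 10.78 and 10.82 in Control. Every treated array lay above every Control array, and the F2V2 arrays lay between the Control and the humanFGF2 arrays. Cct3 rose by 0.58 with humanFGF2 (standard error 0.06, adjusted p = 2.26e-06, limma) and by 0.53 with wtFGF2 (0.06, adjusted p = 1.16e-06), and the difference with F2V2 was 0.36 (0.06, adjusted p = 0.000336), under the fold threshold. Tcp1, the alpha subunit, rose by 0.55 with humanFGF2 (standard error 0.07), and Cct4 and Cct6a, the delta and zeta subunits, by 0.56 (0.06) and 0.57 (0.09). For these 3 genes the differences with F2V2 were 0.35, 0.23 and 0.24, the last with an adjusted p of 0.0673 (limma). Cct6b, a subunit known mainly from testis, was near the floor at 4.69 ± 0.05 with humanFGF2 and 4.91 ± 0.17 in Control (SD, n = 4 arrays each).

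Set directly against F2V2, humanFGF2 gave higher values of all 8 subunits with no overlap between the arrays, and 7 of the 8 passed at adjusted p alone (background upward 13.9% without overlap and 11.8% at adjusted p alone). The differences were between 0.14 and 0.33 and none reached 1.4-fold. As deviations from the mean of each subunit, the median over the 8 was between 0.06 and 0.16 on the wtFGF2 arrays, 0.15 and 0.24 on the humanFGF2 arrays, -0.12 and 0.05 on the F2V2 arrays, and -0.29 and -0.25 on the Control arrays. F2V2 replicate 3 was the lowest F2V2 array, at -0.12.

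**Figure D2:**
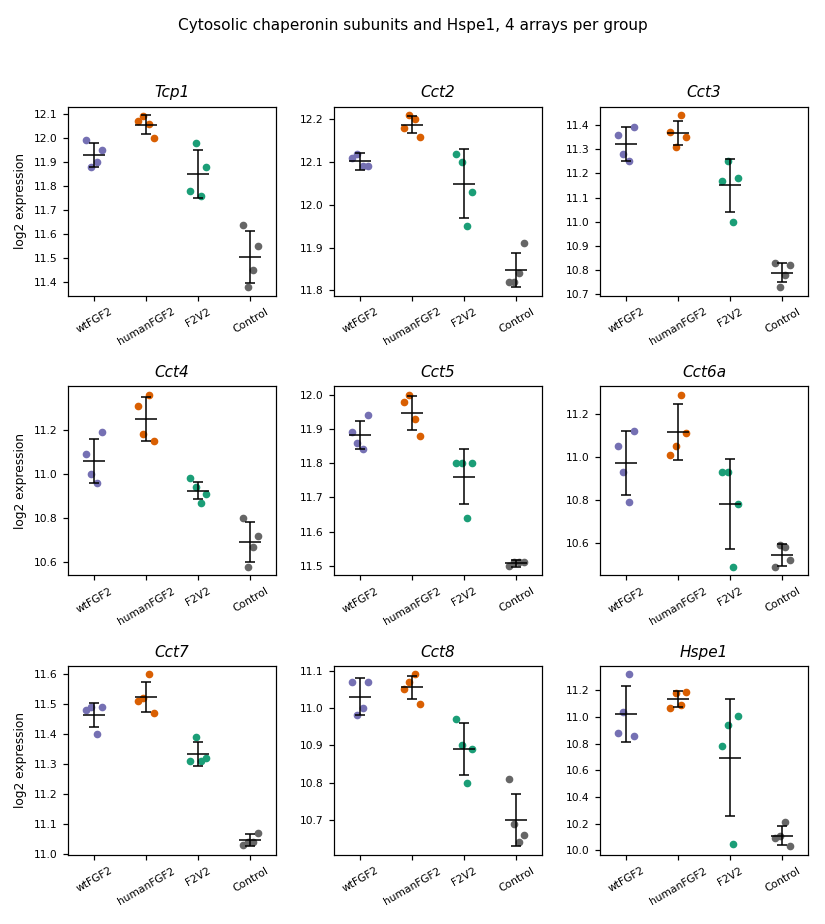
Log2 expression (vertical axis, its range set for each gene) of 8 cytosolic chaperonin subunits and Hspe1 on each array of wtFGF2, humanFGF2, F2V2 and Control. Bars are mean ± SD of 4 arrays. HumanFGF2 arrays are the highest on average in each panel and Control arrays the lowest, and F2V2 replicate 3 lies within the Control range for Hspe1 (10.05).

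Hspe1, the lid of the mitochondrial chaperonin, had the largest rise of all members. Its log2 values were 10.88, 11.04, 11.32 and 10.86 with wtFGF2, 11.07, 11.18, 11.09 and 11.19 with humanFGF2, 10.78, 10.94, 10.05 and 11.01 with F2V2, and 10.09, 10.11, 10.21 and 10.03 in Control. The wtFGF2 and humanFGF2 arrays lay wholly above Control, whereas F2V2 replicate 3 fell inside the Control range and the other F2V2 arrays lay above it. Hspe1 rose by 1.02 with humanFGF2 (standard error 0.16, adjusted p = 0.000112, limma), 0.91 with wtFGF2 (0.16, adjusted p = 0.000164) and 0.58 with F2V2 (0.16, adjusted p = 0.0114). Without F2V2 replicate 3 the F2V2 difference was 0.80 (adjusted p = 3.32e-06), and without F2V2 replicate 4 it was 0.48 and under the fold threshold. The difference between humanFGF2 and F2V2, 0.44 (95% interval 0.10 to 0.78), had an adjusted p of 0.0669 (limma), and it was called without F2V2 replicate 2 (0.52, adjusted p = 0.0462) or without F2V2 replicate 4 (0.54, adjusted p = 0.0318). Hspa9, the mitochondrial HSP70 that hands clients to this chaperonin, stayed under the fold threshold, with differences of 0.28 with humanFGF2, 0.25 with wtFGF2 and 0.09 with F2V2.

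Among the nucleotide exchange factors, Bag1, Bag3 and Hspbp1 were higher with every ligand at adjusted p alone, Bag2 rose with humanFGF2, and Bag4 and Hspa4l were lower with every ligand at adjusted p alone and by less than 1.4-fold. Hspa4 was not called, but every treated array lay above Control. Its means were 11.80 with wtFGF2, 11.84 with humanFGF2 and 11.74 with F2V2, against 11.59 in Control. Of the 8 factors measured, 4 were called higher with humanFGF2 (Bag1, Bag2, Bag3 and Hspbp1), 3 with wtFGF2 (all of these but Bag2) and 2 with F2V2 (Bag1 and Bag3). That is 50.0%, 37.5% and 25.0%, against 10.5%, 7.06% and 5.76% of all clusters. In these comparisons 0 were called lower, against 8.59%, 5.92% and 3.60% of all clusters. Bag1, a cofactor that links HSP70 to the proteasome, had log2 values of 9.94, 10.08, 10.10 and 9.93 with wtFGF2, 10.26, 10.18, 10.16 and 10.23 with humanFGF2, 9.95, 10.03, 9.54 and 9.92 with F2V2, and 9.37, 9.30, 9.31 and 9.29 in Control. Every treated array exceeded every Control array, F2V2 replicate 3 by the least. Bag1 rose by 0.89 with humanFGF2 (standard error 0.09, adjusted p = 1.59e-06, limma), 0.70 with wtFGF2 (0.08, adjusted p = 3.46e-06) and 0.54 with F2V2 (0.09, adjusted p = 0.00029), and its difference between humanFGF2 and F2V2 was 0.34 (0.09, adjusted p = 0.0113), which did not reach 1.4-fold.

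Bag3, which works with Hspb8 to send misfolded proteins to autophagy, had log2 values of 10.77, 10.93, 10.85 and 10.74 with wtFGF2, 10.92, 10.94, 10.93 and 10.96 with humanFGF2, 10.72, 10.87, 10.76 and 10.69 with F2V2, and 10.04, 10.34, 10.37 and 10.35 in Control. The treated arrays were all above Control, and Control replicate 1 stood below the other Control arrays. Bag3 rose by 0.66 with humanFGF2 (standard error 0.07), 0.55 with wtFGF2 (0.07) and 0.49 with F2V2 (0.07). Its F2V2 difference was no longer called without Control replicate 1 (0.41) or without F2V2 replicate 2 (0.45), nor was that with wtFGF2 without Control replicate 1 (0.47). Hspbp1, an exchange factor of cytosolic HSP70, rose by 0.74 with humanFGF2 (standard error 0.07) and 0.61 with wtFGF2 (0.08), and its difference with F2V2 was 0.47 (0.07, adjusted p = 0.000163, limma), just under the fold threshold.

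Bag2, which restrains the ubiquitin ligase partner of HSP70, set humanFGF2 apart from F2V2. It had log2 values of 7.92, 7.90, 8.13 and 8.17 with wtFGF2, 8.33, 8.25, 8.18 and 8.33 with humanFGF2, 7.81, 7.66, 7.62 and 7.89 with F2V2, and 7.90, 7.85, 7.46 and 7.78 in Control. The humanFGF2 arrays lay above all others, and the F2V2 and Control arrays overlapped. Bag2 was higher by 0.53 with humanFGF2 than with F2V2 (standard error 0.09, adjusted p = 0.00105, limma) and than in Control (0.09, adjusted p = 0.000308), a call against Control that was lost without Control replicate 3. Its difference between F2V2 and Control was 0.00 (95% interval -0.20 to 0.20).

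Bag4 and Hspa4l pointed the other way. Bag4, an inhibitor of death receptor signalling, differed from Control by -0.40 with humanFGF2, -0.32 with wtFGF2 and -0.43 with F2V2, and Hspa4l, an HSP110 protein, by -0.39, -0.27 and -0.24. None of these reached 1.4-fold, although all passed at adjusted p alone. Hsph1, the heat-inducible HSP110 protein whose upstream triple is shown above, differed from Control by 0.18 with humanFGF2 (adjusted p = 0.0267, limma), 0.11 with wtFGF2 and -0.04 with F2V2.

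**Figure D3:**
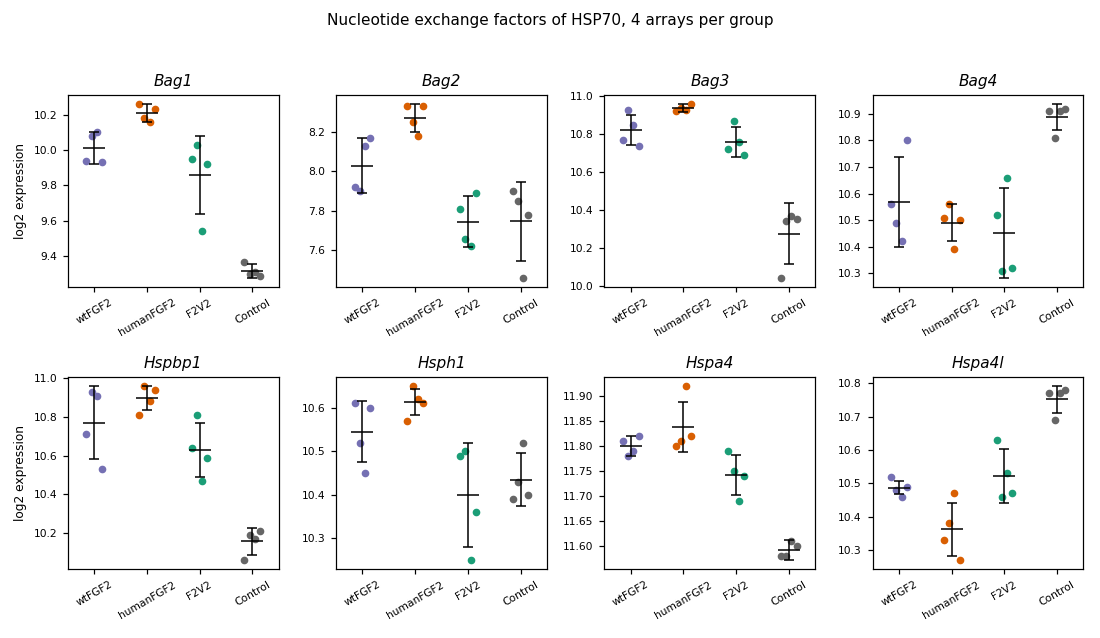
Log2 expression (vertical axis, its range set for each gene) of 8 nucleotide exchange factors of HSP70 on each array of wtFGF2, humanFGF2, F2V2 and Control, with mean ± SD of 4 arrays. In Bag1, Bag3, Hspbp1 and Hspa4 all treated arrays lie above Control, in Bag4 and Hspa4l all lie below it, and in Bag2 the humanFGF2 arrays stand above the F2V2 and Control arrays.

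Small heat shock proteins diverged from each other. Of the 7 in the symbol rule that were measured, Hspb8 was the only 1 called higher and Hspb1 the only 1 called lower with humanFGF2. That is 14.3% each way, against 10.5% and 8.59% of all clusters. The 4 genes Hspb2, Hspb3, Hspb7 and Hspb9 were near the floor in every group. Cryab, a small heat shock protein outside the symbol rule, is described with the partners below. Hspb1, known as HSP27, which binds unfolding proteins and actin filaments, had log2 values of 11.06, 10.99, 11.06 and 10.89 with wtFGF2, 10.48, 10.77, 10.62 and 10.58 with humanFGF2, 11.41, 11.53, 11.43 and 11.51 with F2V2, and 11.54, 11.83, 11.72 and 11.51 in Control. HumanFGF2 arrays were lowest, wtFGF2 arrays next with no overlap, and F2V2 arrays overlapped Control. Hspb1 fell by 1.04 with humanFGF2 (standard error 0.08, adjusted p = 1.67e-07, limma) and by 0.65 with wtFGF2 (0.08, adjusted p = 3.06e-06), whereas its difference with F2V2 was -0.18 (95% interval -0.35 to -0.01, adjusted p = 0.108). Tested directly, Hspb1 was lower with humanFGF2 than with F2V2 by 0.86 on the log2 scale (0.08, adjusted p = 6.27e-06).

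Hspb8, the partner of Bag3, showed the reverse. Its log2 values were 9.39, 9.44, 9.53 and 9.52 with wtFGF2, 9.62, 9.71, 9.77 and 9.79 with humanFGF2, 9.10, 9.20, 8.98 and 9.12 with F2V2, and 9.29, 9.18, 9.27 and 9.21 in Control. The humanFGF2 arrays were above all others and the wtFGF2 arrays came next, and F2V2 and Control arrays overlapped. Hspb8 was 0.62 higher with humanFGF2 than with F2V2 (standard error 0.06, adjusted p = 7.11e-06, limma) and 0.49 higher than in Control (0.06, adjusted p = 1.08e-05). The call against Control sat at the fold threshold and was lost without Control replicate 2 or 4 or without humanFGF2 replicate 3 or 4. Hspb6, known as HSP20, differed from Control by -0.45 with humanFGF2, -0.28 with wtFGF2 and -0.30 with F2V2, without overlap of the arrays and under the fold threshold.

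Of the HSP70 genes 7 were measured, with Hspa1b and Hspa12b near the floor, and of the HSP90 genes in the rule Hsp90ab1 was the 1 measured. None of the 7 HSP70 genes was called against Control with any ligand. The shares of all clusters called were 19.0% with humanFGF2, 13.0% with wtFGF2 and 9.36% with F2V2. With 7 genes, some of them near the floor, a count of 0 cannot show a share below these. At adjusted p alone 2 were higher and 2 lower with humanFGF2, or 28.6% each way. This was near the background of 24.4% and 21.2% of all clusters. The largest difference with humanFGF2 was 0.32 for Hspa14, a ribosome-associated member. Hspa1b, the classical stress-inducible HSP70, stayed near the floor at 3.96 ± 0.04 with wtFGF2, 4.02 ± 0.14 with humanFGF2, 3.93 ± 0.07 with F2V2 and 3.97 ± 0.11 in Control (SD, n = 4 arrays each); it has a near-identical neighbour, Hspa1a, which probes may not tell apart. Hsp90ab1, the constitutive cytosolic HSP90, differed by 0.20 with humanFGF2 (adjusted p = 0.0112, limma), 0.14 with wtFGF2 and 0.13 with F2V2, and Hspa12a, a distant HSP70 relative, by -0.29, -0.30 and -0.14.

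Hspa2, an HSP70 best known for its part in sperm development, was placed on opposite sides of Control by the humanFGF2 and F2V2 arrays. Its log2 values were 10.50, 10.53, 10.49 and 10.42 with wtFGF2, 9.95, 10.13, 10.07 and 10.03 with humanFGF2, 10.53, 10.57, 10.53 and 10.54 with F2V2, and 10.21, 10.43, 10.26 and 10.32 in Control. All humanFGF2 arrays lay below and all F2V2 arrays above the Control arrays, and the wtFGF2 arrays overlapped Control at their lower end. The differences from Control were -0.26 with humanFGF2 (standard error 0.06, adjusted p = 0.00154, limma) and 0.24 with F2V2 (0.06, adjusted p = 0.00481), each under the fold threshold. Between humanFGF2 and F2V2 the difference was -0.50 (0.06, adjusted p = 3.39e-05), which was called, though not without humanFGF2 replicate 1.

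Of 13 Dnaja and Dnajb genes, 1 was called higher and 3 lower with humanFGF2 (7.69% and 23.1%, against 10.5% and 8.59% of all clusters). With wtFGF2 the counts were 0 and 1 (0% and 7.69%, against 7.06% and 5.92%). With F2V2, 0 were called in either direction, against 5.76% higher and 3.60% lower of all clusters. The upward share with humanFGF2 was thus below the background and the downward share above it. Dnajb13, a J protein of the cilium and sperm tail, had log2 values of 5.97, 6.20, 6.02 and 6.08 with wtFGF2, 5.67, 5.69, 5.85 and 5.52 with humanFGF2, 6.30, 6.53, 6.22 and 6.24 with F2V2, and 6.73, 6.75, 6.48 and 6.97 in Control. The humanFGF2 arrays were below all others and the wtFGF2 arrays below the F2V2 and Control arrays. Dnajb13 fell by 1.05 with humanFGF2 (standard error 0.10, adjusted p = 1.63e-06, limma) and by 0.66 with wtFGF2 (0.10, adjusted p = 3.32e-05), and differed by -0.41 with F2V2 (0.10, adjusted p = 0.00697), under the fold threshold. Its difference between humanFGF2 and F2V2 was -0.64 (0.10, adjusted p = 0.000557), which was called.

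Dnajb14, a J protein of the endoplasmic reticulum membrane, fell by 0.57 with humanFGF2 (standard error 0.07) and differed by -0.39 with wtFGF2 and -0.31 with F2V2. Dnajb4, a cytosolic partner of HSP70, fell by 0.52 with humanFGF2 (0.05), a call lost without Control replicate 2, and differed by -0.41 with wtFGF2 and -0.37 with F2V2. Both genes had treated arrays wholly below Control with every ligand. Dnajb5, another cytosolic J protein, had log2 values of 9.58, 9.71, 9.74 and 9.53 with wtFGF2, 10.01, 10.09, 10.01 and 10.19 with humanFGF2, 9.62, 9.50, 9.50 and 9.48 with F2V2, and 9.59, 9.54, 9.47 and 9.47 in Control. The humanFGF2 arrays stood alone at the top and the other groups overlapped. Dnajb5 was 0.56 higher with humanFGF2 than in Control (0.06, adjusted p = 2.46e-06, limma) and 0.55 higher than with F2V2 (0.06, adjusted p = 1.63e-05), and its difference between F2V2 and Control was 0.01 (95% interval -0.11 to 0.13).

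The heat-inducible J proteins Dnajb1 and Dnaja1 did not share in this. Dnajb1, the main cytosolic partner of inducible HSP70, differed from Control by 0.23 with humanFGF2 (adjusted p = 0.0154, limma), 0.01 with wtFGF2 and 0.03 with F2V2. Dnaja1 differed by -0.04, 0.01 and -0.03, with 95% intervals within -0.15 and 0.11. Dnajb11, a J protein of the endoplasmic reticulum lumen, was 0.48 higher with humanFGF2, just short of the fold threshold.

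Of 20 Dnajc genes, 3 were called higher with humanFGF2, 1 with wtFGF2 and 1 with F2V2, that is 15%, 5% and 5%, against 10.5%, 7.06% and 5.76% of all clusters. The shares with wtFGF2 and F2V2 were thus near the background. With each ligand 0 were called lower, against 8.59%, 5.92% and 3.60% of all clusters. At adjusted p alone 11 were higher and 2 lower with humanFGF2, or 55.0% and 10.0%, against 24.4% and 21.2% of all clusters. Dnajc25, a membrane J protein, had log2 values of 8.55, 8.79, 8.92 and 8.86 with wtFGF2, 9.08, 8.95, 8.74 and 8.94 with humanFGF2, 8.75, 8.85, 8.71 and 8.63 with F2V2, and 8.22, 8.24, 8.25 and 8.10 in Control. Every treated array lay above Control and the 3 ligand groups overlapped each other. It rose by 0.73 with humanFGF2 (standard error 0.07, adjusted p = 2.4e-06, limma), 0.58 with wtFGF2 (0.08, adjusted p = 2.69e-05) and 0.53 with F2V2 (0.07, adjusted p = 9.64e-05). Dnajc2, which binds the ribosome together with Hspa14 and receives nascent chains, rose by 0.64 with humanFGF2 (0.06, adjusted p = 7.1e-07) and differed by 0.37 with wtFGF2 and 0.33 with F2V2, without overlap with Control. Dnajc22, a membrane J protein linked to endocytosis in the fly, rose by 0.52 with humanFGF2 (0.12, adjusted p = 0.00197), a call lost without Control replicate 4 or without humanFGF2 replicate 1 or 2.

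Between humanFGF2 and F2V2, given at the same dose and time, 6 of the 68 members were called. Hspb8, Dnajb5 and Bag2 were higher and Hspb1, Dnajb13 and Hspa2 lower with humanFGF2, or 4.41% each way, against 2.89% and 2.91% of all clusters (5.79% together), and at adjusted p alone 19 were higher and 8 lower, that is 27.9% and 11.8%, against 11.8% and 9.65% of all clusters. The median log2 difference was 0.10 for the members and 0.02 for all clusters. For wtFGF2, 0 members were called against humanFGF2 and 0 against F2V2 (limma; background 1.97% and 1.42%). At an unadjusted p under 0.05, 8 were higher and 11 lower against humanFGF2 (background 9.31% and 11.0%) and 10 higher and 6 lower against F2V2 (8.91% and 7.91%), and at adjusted p alone the counts were 4 and 5 (background 3.51% and 4.93%), and 1 and 1 (1.68% and 2.24%). Hspb1 lay between the other ligands, 0.39 above humanFGF2 (adjusted p = 0.00372) and 0.47 below F2V2 (log2 difference -0.47, adjusted p = 0.00147), while Dnajb5 was lower with wtFGF2 than with humanFGF2 (log2 difference -0.43, adjusted p = 0.000177) and Hspa2 higher (0.44, adjusted p = 5.11e-05). With the dose of wtFGF2 not known, these values stand side by side only.

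**Figure D4:**
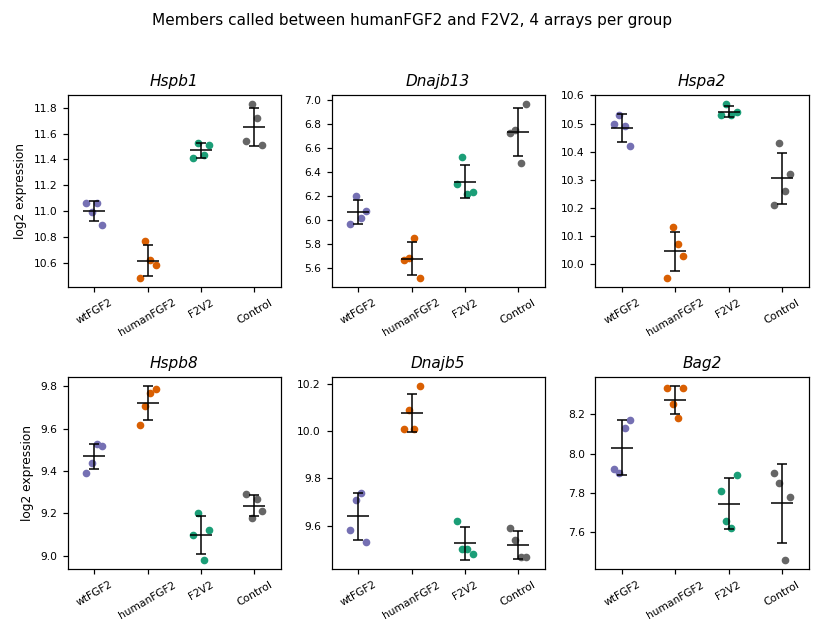
Log2 expression (vertical axis, its range set for each gene) of the 6 members called between humanFGF2 and F2V2, on each array of wtFGF2, humanFGF2, F2V2 and Control, with mean ± SD of 4 arrays. HumanFGF2 and F2V2 arrays do not overlap in any panel, and F2V2 arrays overlap Control in each panel except that of Hspa2.

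Partners of the chaperones outside the symbol rule were described from a list of 45 genes, 36 of them measured. With humanFGF2, 9 were called higher, with wtFGF2 5 and with F2V2 2, or 25.0%, 13.9% and 5.56%, against 10.5%, 7.06% and 5.76% of all clusters. The upward share with F2V2 was near the background. With each ligand 0 were called lower, against 8.59%, 5.92% and 3.60% of all clusters. Pfdn1, a subunit of prefoldin, which delivers actin and tubulin to CCT, rose by 0.88 with humanFGF2 (standard error 0.06), 0.78 with wtFGF2 (0.06) and 0.69 with F2V2 (0.06). A second subunit, Pfdn6, rose by 0.58 with humanFGF2 and differed by 0.46 with wtFGF2 and 0.44 with F2V2, passing at adjusted p alone. Pdcl3, a phosducin-like cofactor of CCT, rose by 0.71 with humanFGF2 (0.05) and differed by 0.31 with wtFGF2 and 0.30 with F2V2. Of 8 CCT clients measured, 2 were called higher with humanFGF2 and 1, Tubb6, with each of the other ligands. These are 25.0% with humanFGF2 and 12.5% with wtFGF2 and with F2V2, against 10.5%, 7.06% and 5.76% of all clusters. The beta-tubulin Tubb6 rose by 2.45 with humanFGF2 (0.09), 2.04 with wtFGF2 (0.08) and 1.82 with F2V2 (0.09). Tubb4b rose by 0.51 with humanFGF2 and differed by 0.35 with wtFGF2 and 0.24 with F2V2. In the order humanFGF2, wtFGF2 and F2V2, Tuba1a differed by 0.45, 0.31 and 0.34, and Tubb5 by 0.31, 0.24 and 0.18. These differences of Tubb4b, Tuba1a and Tubb5 passed at adjusted p alone, and only that of Tubb4b with humanFGF2 reached 1.4-fold. For the other clients the differences with humanFGF2 were 0.09 for Actg1, 0.03 for Tubb2a, 0.07 for Tubb2b and 0.04 for Tubb3, none of which passed at adjusted p alone.

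Of the HSP90 partners, Fkbp4, an immunophilin of steroid receptor complexes, rose by 0.70 with humanFGF2 and 0.56 with wtFGF2. Its difference with F2V2 was 0.47 (adjusted p = 0.000115, limma), just under the fold threshold. Cdc37, which loads kinases onto HSP90, rose by 0.50 with humanFGF2 (0.38 with wtFGF2 and 0.26 with F2V2, under the fold threshold). Trap1, itself the mitochondrial HSP90 and outside the symbol rule, rose by 0.55 with humanFGF2 and 0.52 with wtFGF2. Its difference with F2V2 was 0.37, which passed at adjusted p alone. Cryab, the alpha B-crystallin abundant in oligodendrocytes and astrocytes, had log2 values of 11.40, 11.38, 11.51 and 11.32 with wtFGF2, 11.45, 11.39, 11.42 and 11.42 with humanFGF2, 10.54, 10.73, 10.22 and 10.44 with F2V2, and 10.23, 10.60, 10.63 and 10.61 in Control. The wtFGF2 and humanFGF2 arrays formed 1 high cluster, and F2V2 overlapped Control. Cryab was higher by 0.94 with humanFGF2 than with F2V2 (standard error 0.10, adjusted p = 3.35e-05, limma) and by 0.92 with wtFGF2 than with F2V2 (0.10, adjusted p = 4.03e-05), and its difference between F2V2 and Control was -0.04 (0.10). Neither heat shock factor was called: Hsf1 differed from Control by 0.34 with humanFGF2 (0.07, adjusted p = 0.00133), 0.20 with wtFGF2 and 0.16 with F2V2, and Hsf2 by -0.07, -0.07 and -0.15.

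Markers of the cell types in the cultures moved with the ligands too. Of the 3 oligodendrocyte markers measured out of 6, 3 were called lower with humanFGF2, 2 with wtFGF2 and 1 with F2V2. These are 100%, 66.7% and 33.3%, against 8.59%, 5.92% and 3.60% of all clusters. The summed level (log2) of the 3 markers ran from 11.89 to 12.11 on humanFGF2 arrays, 12.17 to 12.25 on wtFGF2 arrays, 12.33 to 12.54 on F2V2 arrays and 12.60 to 12.72 on Control arrays. Mog, a late myelin protein, fell by 1.54, 1.22 and 0.62 in the same order, humanFGF2 first. The summed astrocyte level (2 of 6 measured) ran from 12.05 to 12.21, 12.21 to 12.35 and 12.42 to 12.55 for these ligands, against 12.56 to 12.65 in Control, the progenitor level (4 of 4) from 11.53 to 11.67, 11.90 to 12 and 11.99 to 12.20, against 12.18 to 12.33, and the neuronal level (3 of 6) from 13.36 to 13.42, 13.35 to 13.54 and 13.43 to 13.49, against 13.66 to 13.70. The microglial level (6 of 6) ran from 10.81 to 11.03, 11.01 to 11.38 and 11.27 to 11.33, against 11.03 to 11.33, and that of fibroblasts and pericytes (5 of 5) from 10.84 to 11.80, 11.07 to 11.68 and 11.44 to 11.86, against 11.23 to 11.93. Within the progenitor list Gpr17 fell by 1.71 with humanFGF2, 1.02 with wtFGF2 and 0.89 with F2V2, whereas Olig2 rose by 0.62 with wtFGF2 and 0.73 with F2V2 and differed by 0.45 with humanFGF2, and Cspg4 fell by 0.83 with humanFGF2 and differed by -0.43 with wtFGF2 and 0.00 with F2V2. Microglial genes were mixed too: Tmem119 rose by 0.63 with wtFGF2 and 0.75 with F2V2 and differed by 0.48 with humanFGF2. Itgam rose by 0.63 with F2V2 and differed by 0.43 with humanFGF2 and 0.39 with wtFGF2. All these differences of Tmem119 and Itgam passed at adjusted p alone. P2ry12 fell by 0.50 with humanFGF2, and differed by -0.27 with wtFGF2 and -0.25 with F2V2 without passing. Csf1r differed by -0.39 with humanFGF2, which passed at adjusted p alone, -0.08 with wtFGF2 and 0.09 with F2V2. Oligodendrocyte, astrocyte and neuronal sums were thus below Control on every ligand array, and those of fibroblasts and pericytes overlapped Control with every ligand. A sum weighs its brightest gene most, and that of astrocytes came almost wholly from Slc1a3. With F2V2 the astrocyte sum reached 12.55, against 12.56 on the lowest Control array. Slc1a3 itself overlapped there, at up to 12.54 with F2V2 and down to 12.52 in Control (adjusted p = 0.056, limma), while Gjb6 fell by 1.76 with F2V2. No marker was at 0, the lowest value being that of the astrocyte connexin Gjb6, 4.21 on a humanFGF2 array. Whether the chaperone values followed these shifts was not tested, and in mixed cultures fewer cells of a type and less RNA per cell cannot be told apart.

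Array medians lay between 5.81 and 5.92 and the lowest correlation between arrays of 1 group was 0.996. The deposited description speaks of independent cultures whereas a legend of the study speaks of technical replicates, so every p-value given here rests on the spread among 4 arrays that may be technical.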

How the data were processed

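Biotin-labelled RNA of each sample was measured on its own Affymetrix Rat Gene ST array, 16 in all. The values deposited by the authors are log2 expression, between 3.02 and 14.5, made in Partek Genomics Suite 6.6 with GCRMA at the level of probe sets and a one-step Tukey's biweight for each transcript cluster. The summary can compress differences near the floor, and the number of arrays limits the precision.

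Clusters were named through the platform annotation deposited in GEO. Of 36685 clusters, 15653 with a symbol (14824 with 1, 829 with several) were tested and 21032 were not. Of the members, 67 of 68 matched RefSeq by gene ID, and 3 genes had more than 1 cluster. Another 3 clusters with several symbols, a member among them, were not used.

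Comparisons of humanFGF2, F2V2 and Control came from lmFit and eBayes of limma 3.58.1 (R 4.3.3) on these 12 arrays, those of wtFGF2 on all 16, and p-values were adjusted by Benjamini-Hochberg over all 15653 clusters. The fold threshold of 1.4 was that of the study's methods. The fit was tested on simulated data with known changes. Named are all members called in a comparison, the member of each role list with the largest difference from Control, Hsf1, Hsf2 and partner genes that were called, and Hspbap1. Bag4, Hspa4, Hspa4l, Hsph1, Hspa9, Hspa1b, Hspa8, Hsp90aa1, Hspd1, Hspd1l2, Dnajb1, Dnaja1, Dnajb11, Cct6b, Hspa12b, the dim small heat shock proteins, the CCT clients that were not called, Mog, Slc1a3, Gjb6, Gpr17, Olig2, Cspg4, Tmem119, Itgam, P2ry12 and Csf1r were named in addition, with their values known. Members, lists and tests were chosen with earlier results of these data known. Replicate numbers were not taken as pairs (see the account of the block in the closing section). Promoter windows are those of RefSeq on GRCr8, searched in Python 3.11.15. Measurements other than the arrays were not analysed here.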

Additional observations from a re-analysis of the deposited data

Results flagged for a closer look

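Among the genes named, 6 groups of 4 arrays held 1 array whose gap to the next exceeded Dixon's 95% critical value, out of 140 groups of 35 genes examined. Chance alone gives such a gap in about 1 in 20 groups. Bag3 was 10.04 on Control replicate 1, against 10.34 to 10.37 on the other Control arrays, and Cryab was 10.23 on the same array, against 10.60 to 10.63. Hsf1 was 8.77 on Control replicate 3, against 8.94 to 8.97. On F2V2 arrays, Dnajb5 was 9.62 on replicate 1, against 9.48 to 9.50, and Hspa2 was 10.57 on replicate 2, against 10.53 to 10.54. Hsf2 was 10.22 on humanFGF2 replicate 2, against 10.32 to 10.33.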

How the results depend on the processing

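Without a fold threshold, 46 of the 68 members passed for humanFGF2 against Control, 33 for F2V2 against Control, 41 for wtFGF2 against Control, 27 for humanFGF2 against F2V2, 9 for wtFGF2 against humanFGF2 and 2 for wtFGF2 against F2V2. The shares of all clusters were 45.6%, 33.1%, 39.3%, 21.4%, 8.44% and 3.92% in this order. At 2-fold, humanFGF2 against Control had 3 of 68, 1 higher and 2 lower, which is not above the 5.33% of all clusters. Of all clusters called there, 58.6% were higher, so the upward majority of the members at 1.4-fold was not present at 2-fold. F2V2 against Control, wtFGF2 against Control and humanFGF2 against F2V2 had 0 each, against 2.01%, 2.98% and 1.18% of all clusters. Median differences without dim clusters were 0.21 for humanFGF2 and 0.08 for F2V2 against Control and 0.14 between them, with quantile normalization 0.15 for humanFGF2 against Control, and with each array's median subtracted 0.24 for humanFGF2 and 0.14 for wtFGF2 against Control, 0.13 for humanFGF2 against F2V2 and -0.07 for wtFGF2 against humanFGF2. Leaving out 1 array at a time gave counts of 17 to 19, 3 to 6, 7 to 9, 5 to 7, 0 to 0 and 0 to 1 in the order above, the 1 being Hspb1 (-0.49) without wtFGF2 replicate 1 or 3 or F2V2 replicate 1 or 3, and medians of 0.16 to 0.19, 0.01 to 0.07, 0.10 to 0.14, 0.09 to 0.12, -0.05 to -0.03 and 0.03 to 0.07. The F2V2 count of 6 came without F2V2 replicate 3.

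Replicate numbers did not pair the arrays: deviations of same-numbered arrays correlated at -0.165 to 0.22 over 24 pairs, 2 of them over 0.1. With the replicate number as a block the counts were 18, 4, 8, 6, 0 and 0, as without it. For the 55 called comparisons of named genes, 1192 of 1211 values under all alternatives kept their side of the thresholds, 19 were weaker, in 9 gene comparisons, and 0 changed direction. Among the same 35 genes, another 7 comparisons that were not called became so under some alternative: Hspbp1, Fkbp4 and Dnajb13 for F2V2 and Pfdn6 and Cct6a for wtFGF2 against Control, Hspe1 for humanFGF2 against F2V2, and Hspb1 for wtFGF2 against F2V2. Genes named in addition, such as Bag4 and Dnajb11, were not followed 1 by 1 under the alternatives. Their place under the fold threshold may therefore depend on a single array. The calls lost under another normalization were Bag3 with F2V2, Cdc37 and Hspb8 with humanFGF2 (quantile), and Dnajb4 with humanFGF2 and Hspa2 between humanFGF2 and F2V2 (array medians subtracted).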
